A study of Mus musculus with 8 samples.

Results

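The 9 genes described here govern whether lymphocytes leave, enter or remain in a tissue: S1pr1, Klf2, Ccr7, Cxcr4, Cxcl12, Cxcr6, Itgae, Cd69 and Itga4. They were chosen by name for these roles, with earlier results of these data known, and all 9 are among the 24421 genes of the count table. Bulk RNA-seq was performed on whole MC38 tumors, a mouse colon adenocarcinoma line, grown in female B6 Kaede mice that received 250000 cells at 9 weeks of age. Kaede is a green fluorescent protein carried by every mouse of both groups, and violet light converts it irreversibly to red, so that cells present in the tumor at that moment can be followed. In the photoconverted group, 4 tumors of about 5 mm diameter were exposed on day 10 to violet light (405 nm) for 3 min. The 4 control tumors were not exposed, and all 8 were collected 5 h after the exposure. The comparison asks whether the light itself alters the tumor, here for the RNA of genes that act in cell entry and exit. The labels do not say whether each tumor came from a separate mouse, so p-values measure the spread between tumors.

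Lymphocytes leave tissues by following sphingosine 1-phosphate (S1P), which is abundant in blood and lymph, through its receptor S1PR1. The transcription factor KLF2 keeps S1pr1 on in circulating T cells, and CD69, induced upon activation, binds S1PR1 and withdraws it from the surface. CCR7 draws T cells and dendritic cells into lymphatics and lymph nodes, CXCL12 holds CXCR4-bearing cells in stroma, and CXCR6 with the integrin chain CD103 (Itgae) marks T cells retained in tissues and tumors. Several of these genes are not restricted to lymphocytes, since endothelial cells express Klf2, S1pr1 and Cxcl12. In bulk tumors, fewer cells of a type and less RNA per cell cannot be told apart.

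The 8 libraries held 12576615 to 35844417 counts. The gene Rn45s, a ribosomal RNA precursor, took 2.7% to 9.65% of the counts in 5 tumors, but 21.9% in photoconverted tumor 4, 35.7% in control tumor 2 and 23.2% in control tumor 4. RNA of T cells was present, with 9 of 9 markers detected in every tumor and a summed level of 18.6 to 41.6 CPM (read counts scaled to the size of each library) in photoconverted and 10.7 to 38.4 CPM in control tumors. Lck, the kinase that starts T cell receptor signalling, led this list at 4.09 to 9.49 CPM. Epithelial markers, which a colon carcinoma would carry, were near the floor: 4 genes summed to 0.82 to 1.83 CPM over all tumors, Krt18 and Krt19 were at 0 in some tumors, and the leading gene Krt8 did not exceed 0.977 CPM. Of the other lists, those of neutrophils and skeletal muscle stood apart. The 4 neutrophil genes, led by Csf3r, summed to 17.9 to 100 CPM in photoconverted and 15.0 to 26.6 CPM in control tumors, and the 5 muscle genes, led by Acta1, to 121 to 1030 and 123 to 318 CPM. All 9 were estimated higher in photoconverted tumors and none passed the test. Their part in the results below was not tested.

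No difference between photoconverted and control tumors was called for any of the 9 genes. With edgeR's quasi-likelihood test, 0 of 9 passed an adjusted p of 0.05, as did 0 of the 14468 genes tested (0%). At an unadjusted p under 0.05 the same test called 0 of 9, against 2.23% of all genes. DESeq2's Wald test also called 0 of 9, and 0.141% of all genes. The estimates lay between -0.26 (Ccr7) and 0.61 (Cd69) on the log2 scale, 5 above and 4 below 0, with a median of 0.01 beside -0.01 over all genes. For no member were the 4 photoconverted values separated from the 4 control values, which was the case for 1.33% of all genes. The intervals were wide, and for 8 of the 9 members, all but Klf2, they reach past a log2 difference of 1 in at least 1 direction, so that a difference of that size in that direction was not excluded.

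**Figure D1:**
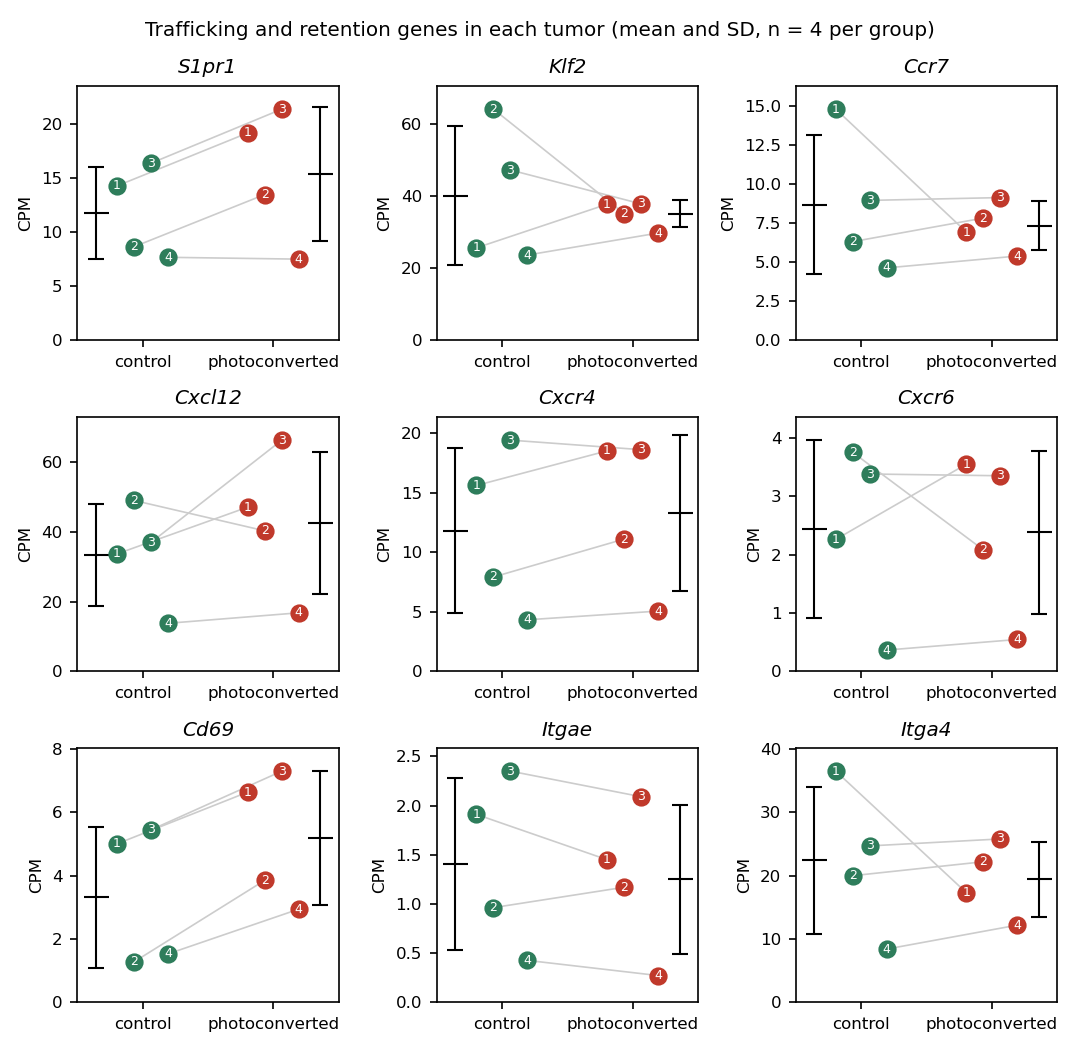
Level of each member (CPM, linear axis from 0) in the 4 control (green) and 4 photoconverted (red) tumors. Figures in the points are the tumor numbers, grey lines join equal numbers, and bars beside the points give mean and SD (n = 4). The ranges of the groups overlap for all 9 genes, and tumors numbered 4 lie at or near the bottom of most panels.

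The genes of egress were considered first. S1pr1, the receptor by which lymphocytes leave along the S1P gradient (chr3:115710433-115715072, minus strand, GRCm38, 2 exons), stood at 19.2, 13.5, 21.4 and 7.52 CPM in photoconverted tumors 1 to 4 and at 14.3, 8.67, 16.4 and 7.69 CPM in control tumors 1 to 4. Photoconverted tumors 1 and 3 were above every control, tumor 4 was below every control, and the groups overlapped. The means were 15.4 ± 6.23 and 11.8 ± 4.23 CPM (SD, n = 4), a log2 difference of 0.38 (95% interval -0.41 to 1.18, edgeR adjusted p = 0.999). The estimate was 0.19 without photoconverted tumor 3, 0.22 without control tumor 4 and 0.60 without photoconverted tumor 4. Pairs of tumors were formed only from the numbers in the sample titles, and the labels state no shared batch. Photoconverted tumors were higher in 3 of the 4 same-numbered pairs. With the tumor number as a block, the estimate was 0.36 (SE 0.15) with an unadjusted p of 0.0406, but an adjusted p of 0.821 in edgeR.

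Klf2, the transcriptional activator of S1pr1 in T cells and a shear-responsive gene of endothelium (chr8:72319033-72321656, plus strand, 3 exons), stood at 37.8, 35.2, 37.9 and 29.8 CPM in photoconverted and at 25.7, 64.2, 47.3 and 23.7 CPM in control tumors. The 4 photoconverted values all lay within the range of the controls. The means were 35.2 ± 3.79 and 40.2 ± 19.2 CPM (SD, n = 4), a log2 difference of -0.19 (95% interval -0.86 to 0.49, edgeR adjusted p = 0.999). The direction rested on control tumor 2: without it the difference was 0.12. Without control tumor 1 or 4 the difference was -0.35 and -0.37. Control tumor 2 held the highest Klf2 level and the third lowest S1pr1 level, and the pair of genes ordered the 8 tumors alike in only 18 of 28 comparisons of tumors. Foxo1, which drives Klf2 in resting T cells, was at 12 to 17.4 CPM with a log2 difference of 0.02.

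The promoter sequences of Klf2, Cxcl12 and Cxcr4 are given because Klf2 and Cxcl12 ordered the tumors of each group alike, as described further on, and because Cxcr4 is the receptor for Cxcl12 and followed another order. Each run holds the 250 bases before the start of the gene in RefSeq (GRCm38.p6), 5′ to 3′ on the strand of the gene: chr8:72318812-72319061 (plus) for Klf2, chr6:117168285-117168534 (plus) for Cxcl12 and chr1:128592300-128592549 (minus) for Cxcr4. Capitals mark matches on either strand to CACCC, the core bound by Krüppel-like factors, to CTA, any 4 bases and TAG, the core of the MEF2 site, or to GAA, any 2 bases and TTC, a core of the heat shock element. These matches do not overlap one another.
Klf2: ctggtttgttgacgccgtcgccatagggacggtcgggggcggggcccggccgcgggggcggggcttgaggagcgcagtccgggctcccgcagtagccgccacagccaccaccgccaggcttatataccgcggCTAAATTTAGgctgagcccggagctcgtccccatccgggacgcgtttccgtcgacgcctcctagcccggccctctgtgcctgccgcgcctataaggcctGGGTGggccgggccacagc
Cxcl12: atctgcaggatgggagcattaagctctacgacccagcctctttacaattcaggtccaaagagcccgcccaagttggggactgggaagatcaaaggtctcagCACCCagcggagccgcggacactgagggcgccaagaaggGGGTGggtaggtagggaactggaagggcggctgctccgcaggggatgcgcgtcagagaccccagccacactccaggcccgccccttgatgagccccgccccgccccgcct
Cxcr4: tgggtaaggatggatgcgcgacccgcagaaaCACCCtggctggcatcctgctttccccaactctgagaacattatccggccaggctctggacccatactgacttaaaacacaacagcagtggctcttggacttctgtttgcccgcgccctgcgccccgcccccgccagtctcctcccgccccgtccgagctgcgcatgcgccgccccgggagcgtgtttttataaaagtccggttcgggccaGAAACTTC
The Klf2 window holds the MEF2 core at bases -118 to -109, which occurs in 3.2% of 32851 promoter windows of this length, and a reverse CACCC at -19 to -15. This window ends at 72319061, past the GENCODE start of Klf2 given above (72319033). By that start, the reverse CACCC lies inside the gene. CACCC occurs in 52.0% of the windows, and was found at 2 places in the window of Cxcl12 (-149 to -145 and, reversed, -110 to -106), at 1 in that of Cxcr4 (-219 to -215), at 4 in that of Itga4 and at none in that of Cxcr6. The heat shock core of Cxcr4 lies at -8 to -1, and is held by 6.69% of the windows. GGG with any 2 bases and TTTCC, and ACGTG, searched for on both strands as cores bound by NF-κB and hypoxia-inducible factors, are not in the 5 windows, and are held by 1.41% and 16.6% of all windows. A match of letters is no measure of binding. S1pr1, Ccr7, Itgae and Cd69 had no promoter window in the set used here, so their promoters were not searched.

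Ccr7, the receptor that guides T cells and mature dendritic cells toward lymph nodes (chr11:99144196-99155077, minus strand, 3 exons), stood at 6.93, 7.83, 9.14 and 5.4 CPM in photoconverted and at 14.8, 6.32, 8.96 and 4.64 CPM in control tumors. Control tumor 1 was the highest of the 8, and the photoconverted values lay within the control range. The means were 7.33 ± 1.57 and 8.68 ± 4.45 CPM (SD, n = 4), a log2 difference of -0.26 (95% interval -1.03 to 0.52, edgeR adjusted p = 0.999). The direction rested on control tumor 1: without it the log2 difference was 0.14, and photoconverted tumors were higher in 3 of 4 pairs. The difference was -0.46 without control tumor 4. Among the 5 tumors in which Rn45s took under 10% of counts it was -0.58 (edgeR adjusted p = 0.449). Few counts fell on the CCR7 ligands Ccl19, between 0 and 0.788 CPM, and Ccl21a. The latter stood at 0.3, 1.2, 1.77 and 0.615 CPM in photoconverted and at 0.114, 0.749, 1.07 and 0.366 CPM in control tumors. Ccl21a was higher in all 4 pairs, on 4 to 45 counts per tumor, with a log2 difference of 0.80 (edgeR adjusted p = 0.999).

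In the CXCL12 axis, Cxcl12, the chemokine of stroma and endothelium (chr6:117168535-117181367, plus strand, 4 exons), stood at 47.1, 40.3, 66.3 and 16.8 CPM in photoconverted and at 33.7, 49.0, 37.0 and 13.8 CPM in control tumors. Photoconverted tumor 3 was highest, both tumors numbered 4 were lowest, and the groups overlapped. The means were 42.6 ± 20.4 and 33.4 ± 14.6 CPM (SD, n = 4), a log2 difference of 0.36 (95% interval -0.63 to 1.35, edgeR adjusted p = 0.999). The difference was 0.07 without photoconverted tumor 3 and 0.10 without control tumor 4. It was 0.619 without photoconverted tumor 4, 0.595 without control tumor 2 and 0.534 among the 5 tumors in which Rn45s took under 10% of counts. The endothelial markers summed to 101 to 175 CPM in photoconverted and 89.5 to 146 CPM in control tumors, with 5 of 7 estimated higher, a median log2 difference of 0.21 and none called. With their score as a covariate, the log2 difference was 0.02 for Cxcl12 and 0.11 for S1pr1, and with the T cell score it was 0.20 and 0.24, and 0.01 for Cxcr4. Cxcr4, its signalling receptor (chr1:128588199-128592293, minus strand, 2 exons), stood at 18.5, 11.1, 18.6 and 5.06 CPM in photoconverted and at 15.6, 7.92, 19.4 and 4.33 CPM in control tumors. Within each group the order was the same, with tumors 3 and 1 high, tumor 2 lower and tumor 4 lowest, so that the 4 pairs differed by only -0.06 to 0.48 on the log2 scale while the tumors spanned 4.48-fold. The means were 13.3 ± 6.55 and 11.8 ± 6.92 CPM (SD, n = 4), a log2 difference of 0.16 (95% interval -0.98 to 1.31, edgeR adjusted p = 0.999), which turned to -0.04 without photoconverted tumor 1 or 3 and to -0.11 without control tumor 4. Ackr3, the scavenging receptor for CXCL12, was at 11.0, 7.39, 19.5 and 1.91 CPM against 10.3, 4.5, 6.29 and 1.95 CPM, a log2 difference of 0.77 (edgeR adjusted p = 0.999), and shared the high value of photoconverted tumor 3 with Cxcl12.

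Cxcr6, a receptor of tissue-resident T cells and NKT cells (chr9:123806475-123811760, plus strand, 2 exons), stood at 3.55, 2.08, 3.35 and 0.547 CPM in photoconverted and at 2.26, 3.75, 3.38 and 0.366 CPM in control tumors. The 2 tumors numbered 4 were far below the other 6, on 8 and 6 counts, with counting intervals of 0.236 to 1.08 and 0.134 to 0.797 CPM (exact Poisson, 95%, counting error only). The means were 2.38 ± 1.39 and 2.44 ± 1.52 CPM (SD, n = 4), a log2 difference of 0.01 with the widest interval among the members (-1.46 to 1.47, edgeR adjusted p = 1.0). Without photoconverted tumor 1 or 3, or control tumor 1 or 4, it was -0.25, -0.18, -0.03 and -0.35. Cxcl16, its membrane-bound ligand, was more abundant and did not follow the receptor in every tumor, at 47.0, 44.7, 53.9 and 30.8 CPM against 41.4, 60.7, 68.7 and 17.0 CPM (log2 difference -0.09, edgeR adjusted p = 0.999). The Cxcr6 locus overlaps Fyco1 on the opposite strand, which was at 24.2 to 33.7 CPM. The strand setting used in counting is not given in the sources used here, and the overlap of Itgae with Haspin and of Itga4 with Cerkl, each on the opposite strand, has the same limit.

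Cd69, the early activation antigen that opposes S1PR1 (chr6:129267325-129275436, minus strand), gave the largest estimate of the 9. It stood at 6.63, 3.85, 7.29 and 2.94 CPM in photoconverted and at 5.0, 1.28, 5.44 and 1.53 CPM in control tumors. Photoconverted tumors 1 and 3 were above every control, tumors 2 and 4 lay between the controls, and in each of the 4 pairs the photoconverted tumor was higher, by 0.4, 1.53, 0.42 and 0.91 on the log2 scale. It was the only member higher in 4 of 4 pairs, which held for 7.2% of all genes tested. The pairs rest on tumor numbers alone. In the pair with the largest difference, Rn45s took 9.65% of counts in photoconverted tumor 2 and 35.7% in control tumor 2. The means were 5.18 ± 2.11 and 3.31 ± 2.21 CPM (SD, n = 4), a log2 difference of 0.61 (95% interval -0.52 to 1.73, edgeR adjusted p = 0.999). With the tumor number as a block, the estimate was 0.75 (95% interval 0.19 to 1.3), and the edgeR p was 0.0147 before and 0.725 after adjustment. Cd69 and S1pr1 were the 2 of 9 members with an unadjusted p under 0.05 in the blocked fit, which called 6.01% of all genes in this way and none after adjustment. Control tumors 2 and 4 held 12 and 25 Cd69 counts. The difference was 0.37 without the former, 0.36 without the latter and 0.40 without photoconverted tumor 3. It rose to 0.86 without control tumor 1 and 0.94 without control tumor 3, and was 0.18 among the 5 tumors in which Rn45s took under 10% of counts. With the log2 Rn45s share as a covariate in the full fit, it was 0.60, and the edgeR p was 0.0117 before and 0.653 after adjustment.

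Itgae, the αE chain (CD103) of the integrin that binds E-cadherin (chr11:73090583-73147446, plus strand, 31 exons), was the lowest member, at 1.45, 1.17, 2.09 and 0.273 CPM in photoconverted and 1.91, 0.963, 2.35 and 0.427 CPM in control tumors. Tumors 1 and 3 were high and tumors 4 lowest in each group, the last on 4 and 7 counts. The means were 1.25 ± 0.753 and 1.41 ± 0.875 CPM (SD, n = 4), a log2 difference of -0.20 (95% interval -1.54 to 1.13, edgeR adjusted p = 0.999), which became 0.08 without photoconverted tumor 4 and 0.15 without control tumor 3. Its partner chain Itgb7, which also pairs with α4, was at 13.8, 20.1, 21.7 and 19.1 CPM against 15.0, 34.5, 15.2 and 22.2 CPM (log2 difference -0.21), and was thus not low in the tumors numbered 4. Cdh1, which encodes E-cadherin, ranged from 0.793 to 3.63 CPM (log2 difference 0.26).

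Itga4, the α4 chain by which leukocytes adhere to VCAM-1 and fibronectin (chr2:79255426-79333123, plus strand, 28 exons), stood at 17.3, 22.2, 25.8 and 12.2 CPM in photoconverted and at 36.5, 20.0, 24.7 and 8.42 CPM in control tumors. As for Ccr7, control tumor 1 was highest, control tumor 4 lowest, and the photoconverted values lay between them. The means were 19.4 ± 5.92 and 22.4 ± 11.6 CPM (SD, n = 4), a log2 difference of -0.22 (95% interval -1.11 to 0.68, edgeR adjusted p = 0.999), which turned to 0.13 without control tumor 1. The β1 chain Itgb1 (439 to 641 CPM, log2 difference 0.10) and the endothelial and stromal ligand Vcam1 (107 to 178 CPM, log2 difference 0.01) spanned 1.46-fold and 1.67-fold over the 8 tumors.

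Across the wider list of 27 partners of these pathways, 23 were tested, 17 were estimated higher and 6 lower in photoconverted tumors, and edgeR called 0, also at an unadjusted p under 0.05. The share estimated higher over all genes was 46.8%, and the median log2 difference of the partners was 0.08. With the block, 6 of 23 had an unadjusted p under 0.05, against 6.01% of all genes in that fit (2.23% without the block), among them S1pr3, Sphk1, Ccl21a, Ackr3 and Prdm1 with log2 differences of 0.74, 0.67, 0.83, 0.66 and 0.47, and none passed adjustment. By pathway, 6 of 9 tested partners in egress, 2 of 2 ligands of CCR7, 1 of 2 in the CXCL12 axis, 1 of 2 in the CXCR6 axis, 4 of 5 residency genes and 3 of 3 partners of α4 were estimated higher.

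**Figure D2:**
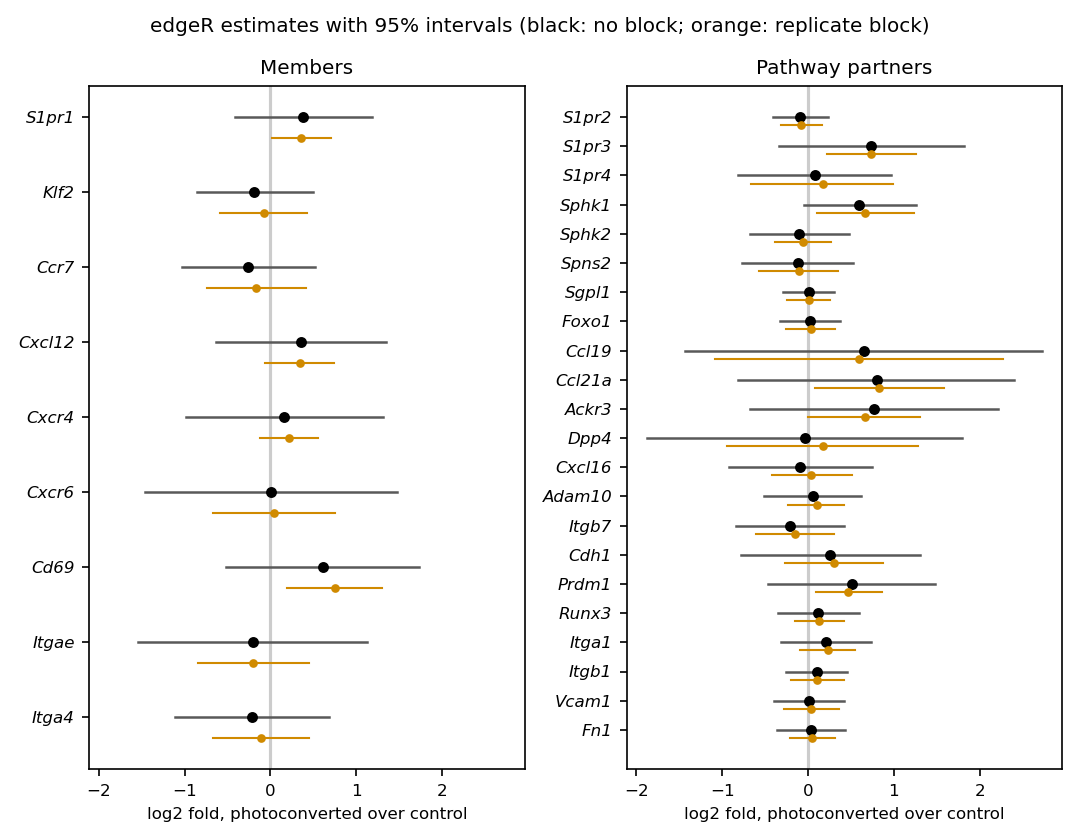
Log2 difference (photoconverted over control) of the 9 members and of tested partners, with 95% intervals from edgeR on 4 against 4 tumors. Black gives the fit without a block, in which every interval spans 0, and orange the fit with tumor number as a block, in which, among the members, the intervals of Cd69 (0.19 to 1.3) and S1pr1 lie above 0 before adjustment over genes.

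The tumors varied widely within each group. The SD of log2 CPM over the 8 tumors was 0.47 (Klf2) to 1.22 (Cxcr6), against a median of 0.3 over all genes tested. The members varied more than 74.8% to 98.5% of those genes, which were not matched for expression level. Cxcr6 and Itgae, the most variable, fell to 6 and 4 counts, where counting error adds to the SD. Cxcr4, on 71 to 741 counts per tumor, varied more than 94.7% of the genes. Cxcr6 spanned 10.2-fold, Itgae 8.58-fold and Cd69 5.67-fold between the highest and lowest tumor, whereas Klf2 spanned 2.7-fold. In 7 of 9 members, all but Klf2 and Cd69, the 2 tumors numbered 4 were below the other 6, an arrangement shown by 13.6% of all genes and by 7 of 9 T cell, 3 of 4 NK cell, 5 of 6 macrophage, 3 of 5 dendritic cell, 3 of 6 fibroblast and 4 of 5 skeletal muscle markers. It was shown by 2 of 7 endothelial, 0 of 3 B cell and 0 of 4 neutrophil markers. In 5 of 9 members (S1pr1, Ccr7, Cxcr4, Itgae and Cd69) the 3 tumors rich in Rn45s were below the other 5, as were 21% of all genes. In control tumor 2, the richest in Rn45s, Klf2 at 64.2 CPM and Cxcr6 at 3.75 CPM were instead at their highest, and Cxcl12 was second only to photoconverted tumor 3. These arrangements were noticed in the values and carry no test, and the part of cell content, depth and RNA quality in them was not tested.

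Within the groups, 12 comparisons of tumors can be made, and 7 of the 9 members shared all 12 with at least 1 other member, whereas Cxcr6 and Cd69 did so with none. Klf2 and Cxcl12 agreed in 12 of 12 with each other and with the mean score of 7 endothelial markers, led by Cdh5, and in 11 of 12 with the T cell and fibroblast scores, although photoconverted tumors 1 and 3 differed by little in Klf2 (37.8 and 37.9 CPM). S1pr1, Cxcr4 and Itgae agreed in 12 of 12 among themselves, and in 11 of 12 with the T cell, NK cell, macrophage and skeletal muscle scores, the NK cell list being led by Klrk1. Ccr7 and Itga4 agreed in 12 of 12 with each other and with the dendritic cell score, in which each gene has equal weight, and in 11 of 12 with the NK cell, macrophage and skeletal muscle scores. The leading dendritic cell gene by level, Fscn1, went against that score: it stood at 568 and 582 CPM in photoconverted and control tumors 4, where Ccr7 and Itga4 were lowest, and at 330 CPM in control tumor 1, where they were highest. Other genes tested that shared all 12 made up 0.698% for Klf2 and Cxcl12, 1.29% for S1pr1, Cxcr4 and Itgae, and 1.15% for Ccr7 and Itga4. All values share the same 8 libraries, so these counts describe the tumors at hand and are no test of cell origin.

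**Figure D3:**
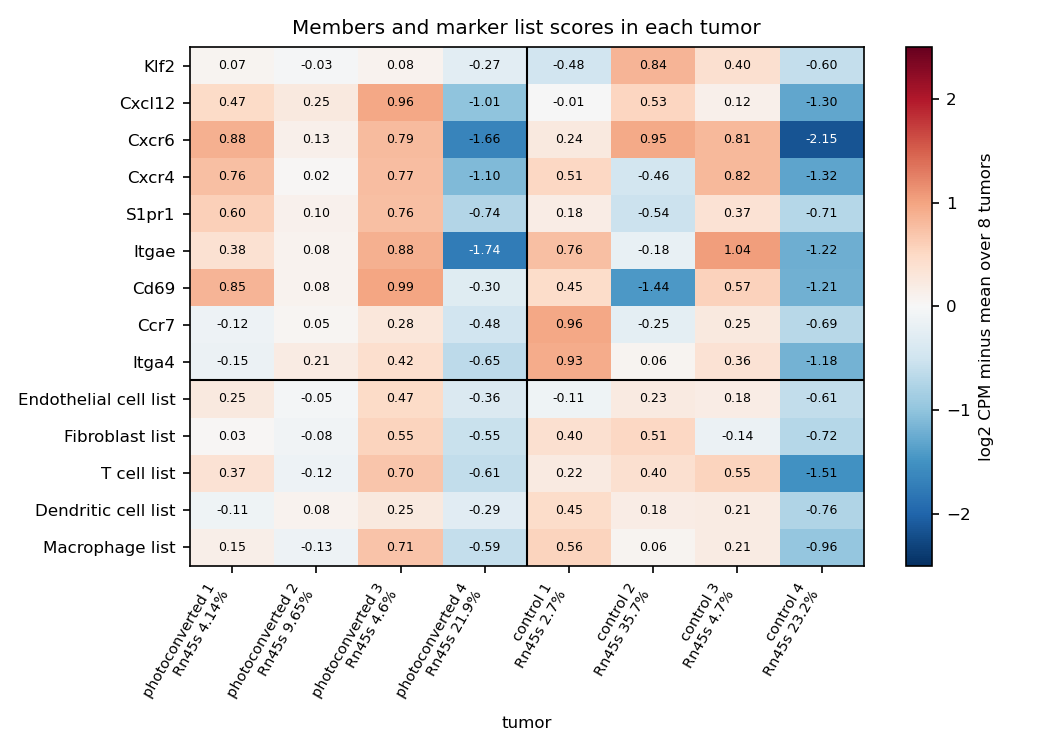
Centred log2 CPM of the members (upper rows) and mean centred log2 CPM of marker lists (lower rows) in each tumor, with the share of counts on Rn45s under the tumor's name. Red is above and blue below the mean over 8 tumors. Control tumor 2 is high for Klf2, Cxcl12 and Cxcr6 and low for Cd69 (-1.44), control tumor 1 is high for Ccr7 and Itga4, and both tumors numbered 4 are low for most rows.

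Dividing by the summed CPM of the 9 T cell markers reduced the range of several members. Cxcr6 then spanned 3.65-fold instead of 10.2-fold, Itgae 4.37-fold instead of 8.58-fold, Cxcl12 1.84-fold instead of 4.81-fold, Cxcr4 2.55-fold instead of 4.48-fold and Itga4 2.35-fold instead of 4.34-fold. Cd69 barely moved (5.62-fold instead of 5.67-fold), and S1pr1 spanned 3.0-fold instead of 2.85-fold. The narrowing was not particular to T cell markers: divided by the 7 endothelial markers, Cxcr6 spanned 6.42-fold, Itgae 6.2-fold, Cd69 4.84-fold, Cxcl12 2.45-fold and S1pr1 2.06-fold. Per 100 CPM of T cell markers, Cd69 stood at 20.0, 15.9, 17.5 and 15.8 CPM in photoconverted tumors and at 16.8, 3.56, 14.2 and 14.3 CPM in control tumors, higher in all 4 pairs, with 7 tumors between 14.2 and 20.0 CPM and control tumor 2 apart, where the T cell markers summed to 36.1 CPM. Adding the T cell score to the edgeR fit gave Cd69 a log2 difference of 0.48 (adjusted p = 1.0), and adding the endothelial score gave 0.31 (adjusted p = 1.0). Per 100 CPM of summed endothelial markers, Cd69 was higher in 3 of 4 pairs.

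**Figure D4:**
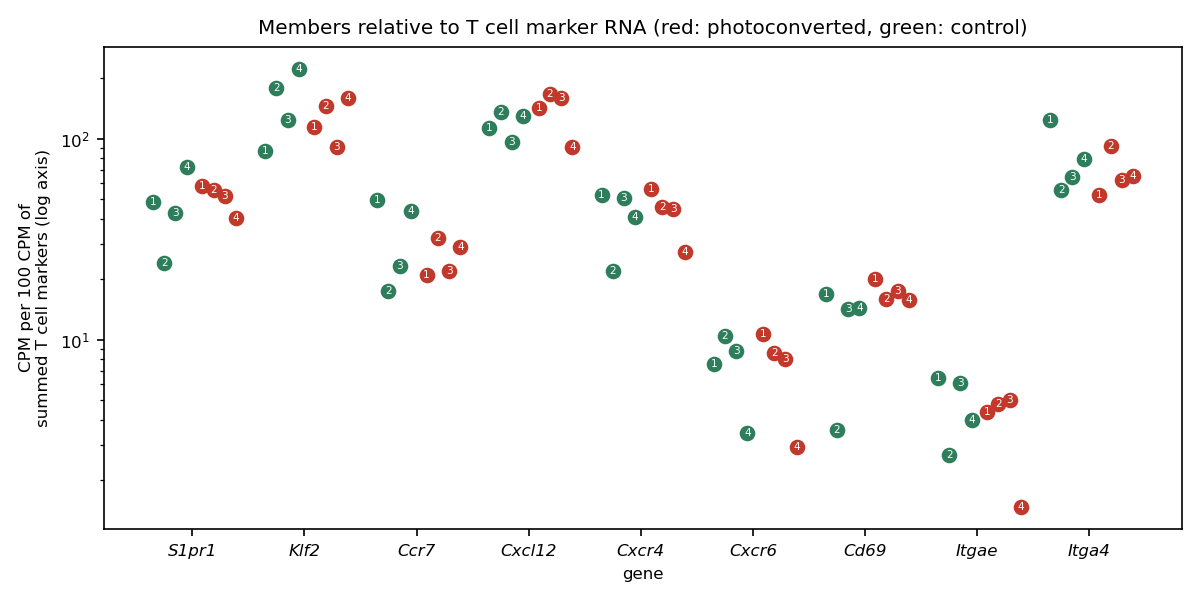
CPM of each member per 100 CPM of the 9 summed T cell markers (log axis) in control (green) and photoconverted (red) tumors, with tumor numbers in the points. The ranges of the groups overlap for every member, and the Cd69 ratio of control tumor 2 (3.56) lies apart from 14.2 to 20.0 in the other 7.

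Levels between genes were compared per kilobase of the longest annotated transcript. Klf2 was the most abundant at 20.4 ± 7.1 CPM per kb (SD, n = 8), followed by Cxcr4 (6.97 ± 3.48), Cxcl12 (6.75 ± 3.05), S1pr1 (4.46 ± 1.74), Ccr7 (4.04 ± 1.6), Itga4 (2.14 ± 0.89), Cxcr6 (1.26 ± 0.706), Cd69 (0.854 ± 0.45) and Itgae (0.346 ± 0.198). Cxcr4 exceeded Cxcl12 in only 3 of 8 tumors and S1pr1 exceeded Ccr7 in 5 of 8, so these neighbours do not differ beyond their spread. Klf2 was above Cxcr4, Ccr7 above Itga4 and Cd69 above Itgae in 8 of 8. The longest Cd69 transcript is an unspliced form of 4968 bases that retains an intron, and with its longest protein-coding transcript of 1687 bases Cd69 stood at 2.52 ± 1.32 CPM per kb, between Ccr7 and Itga4. This length was chosen after the values were seen. The order depended on the length used: per kilobase of the median transcript, Cxcl12 stood at 12.6 ± 5.7, Cxcr4 at 9.29 ± 4.65, Itga4 at 9.02 ± 3.76 and Cd69 at 6.06 ± 3.19 CPM, all above S1pr1 and Ccr7, while Klf2 stayed highest and Itgae lowest.

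Among all genes tested, those with the most similar profile over the 8 tumors were found by the root mean square (RMS) difference of centred log2 CPM. For Cxcr6 they were Cd28 (0.36), Fez1 (0.39) and Themis (0.39), of which Cd28, a costimulatory receptor, and Themis, a T cell receptor signalling protein, are T cell genes. Itgae was closest to Samd3 (0.27), Stat4 (0.28) and Zfp709 (0.28), and Cxcr4 to Igsf6 (0.15), Ptpn22 (0.18) and Id2 (0.18). S1pr1 was closest to the interferon-inducible GTPase genes Tgtp1 (0.12) and Gbp5 (0.13) and to Adgrf5 (0.14), and Klf2 to Zmynd15 (0.14), Trp53i11 (0.14) and Pdgfb (0.15), the last a growth factor made by endothelium. Cxcl12 was closest to Camk4 (0.12), Trf (0.16) and Setbp1 (0.16), and Cd69 to Scn1a (0.13), Pyhin1 (0.16) and Tmsb15b2 (0.17). Ccr7 was closest to Arsg (0.09), Nlrp1a (0.15) and Gstm1 (0.16), and Itga4 to Rnase6, Gm2a and Gpr141 (each 0.18). For the low genes Cxcr6 and Itgae the closest profiles were the most distant, at 0.27 to 0.39.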

How the data were processed

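Whole tumor RNA was sequenced on an Illumina NovaSeq after a stranded total RNA preparation, for which the sources name different kits. The submitters' processing notes name CASAVA, FastQC, Trim Galore, HISAT2, featureCounts and DESeq2 and the build mm10 (GRCm38). Versions, annotation and strand setting are not given in the sources used here. The deposited raw count table holds read counts per gene symbol, and the second deposited table holds a normalized signal, the raw counts divided by DESeq2 size factors.

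Raw counts (12576615 to 35844417 per tumor) of 4 photoconverted and 4 control tumors were tested with edgeR 4.0.16 (TMM, filterByExpr, quasi-likelihood, R 4.3.3) over 14468 genes with Benjamini-Hochberg adjustment at 0.05, and the procedure was tested on simulated data. CPM values are TMM-scaled. Alternatives were DESeq2 1.42.0, limma 3.58.1 on log2 of the deposited values plus a pseudocount of 1, other scalings and filters, a replicate block, T cell, endothelial and Rn45s covariates, only the 5 tumors where Rn45s took under 10% of counts, and leaving out each tumor. No pair of libraries within a group agreed within sampling noise (chi-square per degree of freedom at least 23.8).

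Same-numbered tumors of the groups deviated together for numbers 1, 3 and 4 (r over genes of 0.597, 0.407 and 0.623), but hardly for number 2 (0.107). Photoconverted tumor 3 was closer to control tumor 1 (0.482) than to control tumor 3. Control tumor 2 was closer to photoconverted tumor 4 (0.346) than to photoconverted tumor 2. The labels state no shared batch. Gene positions are from GENCODE on GRCm38, and promoters from RefSeq for 5 of 9 members. Named genes are the 9 members, the main ligands, regulators and subunits among 27 partners, the 3 nearest profiles of each member and the leading gene of each marker list. S1pr3, Sphk1 and Prdm1 were named in addition, only for an unadjusted p under 0.05 in the blocked edgeR fit. The lists not described above were led by Pax5 (B cell, 4.5 to 7.05 CPM summed), Lyve1 (lymphatic endothelium, 10.2 to 31.5 CPM), Col3a1 (fibroblast, 3190 to 12400 CPM) and C1qa (macrophage, 310 to 922 CPM). A partner counted in the totals is not reported here by name. Members and lists were chosen with earlier results of these data known.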

Additional observations from a re-analysis of the deposited data

How the results depend on the processing

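The number of members and of partners called was 0 under all 19 alternatives. Over the whole table, the main test called 0 genes, DESeq2's Wald test 24, the 5 tumors poor in Rn45s (under 10% of counts) 42, and leaving out single tumors 0 to 11 (11 without photoconverted replicate 4). The cause was not tested. The tumor number as a replicate block kept every call at 0 and the direction of all 9 members, with log2 differences of 0.36 for S1pr1, 0.34 for Cxcl12, 0.21 for Cxcr4 and 0.75 for Cd69.

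Cd69, Cxcl12 and S1pr1 kept their direction in all 19 alternatives, with ranges of 0.18 to 0.94, 0.02 to 0.62 and 0.11 to 0.6. The low ends of Cxcl12 and S1pr1 came from the endothelial score as a covariate, which also took Cd69 to 0.31 and Itgae to -0.68. Of 171 combinations of member and alternative, 19 turned in direction, 12 of them on leaving out a tumor. When the 3 tumors rich in Rn45s were left out, Klf2 turned to 0.021 and Cxcr4 to -0.12, while Ccr7 moved to -0.58, Itga4 to -0.50 and Cxcl12 to 0.53, with edgeR p of 0.0382, 0.0498 and 0.0304 before and adjusted p of 0.449, 0.475 and 0.429 after adjustment. With the endothelial score, Cxcr4 turned to -0.22 and Cxcr6 to -0.42. Cxcr6, at 0.01 in the main test, turned to -0.015 with DESeq2, -0.05 with the T cell score and -0.12 with the Rn45s share. Leaving out single tumors gave -0.37 to 0.12 for Klf2, -0.46 to 0.14 for Ccr7, -0.11 to 0.51 for Cxcr4, -0.35 to 0.31 for Cxcr6, -0.54 to 0.15 for Itgae and -0.49 to 0.13 for Itga4. The lowest adjusted p of any member in any alternative was 0.429 (Cxcl12). Counting error is widest for Cxcr6 and Itgae, which rest on 4 to 9 counts in their lowest tumors.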
